A study of Mus musculus with 6 samples.

Results

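The 34 genes described here encode proteins of the cardiac extracellular matrix or its regulators: collagens, glycoproteins, small leucine-rich proteoglycans, crosslinking enzymes, proteolysis genes and the TGF-beta group. They were taken by symbol from the deposited table of KO against control hearts. Of the 34, 32 have a row among the 12824 genes of the table, and all 32 were among the 12686 genes tested; Comp and Fmod were not analysed here. RNA came from whole hearts of C57BL/6 mice aged 2 months, 3 KO hearts of genotype SRSF4flox/flox;NKx2.5-Cre and 3 control hearts of genotype SRSF4flox/flox. Both groups thus carry the floxed Srsf4 gene, which encodes an SR protein of RNA splicing, and they differ in the Cre recombinase, so that the loss of Srsf4 and the presence of Cre cannot be told apart. The comparison addresses how gene activity in the heart differs once this splicing factor is deleted in cells with Nkx2-5-driven Cre. Nkx2-5 is a transcription factor of heart muscle cells and their precursors, and its Cre acts from early heart development on; fibroblasts of the adult heart mostly descend from other cells.

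The extracellular matrix of the heart is a network of collagen fibres, elastic fibres, proteoglycans and basement membranes that surrounds muscle cells and vessels. Fibroblasts make most of its fibrillar collagen, and endothelial cells and other cells make much of the basement membrane. In fibrosis the network expands, TGF-beta being the best known signal, and lysyl oxidases stiffen it by crosslinking collagen and elastin.

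Estimated counts per heart summed to between 59810975 and 74941323. Srsf4 had 22.1, 23.5 and 23.7 CPM (counts per 1000000 counts of the scaled library) in controls 1 to 3 and 10.8, 10.1 and 8.39 CPM in KO hearts 1 to 3, so the libraries followed their labels. It was 2.36-fold lower in the KO hearts, with a log2 fold change of -1.24, a standard error (SE) of 0.11 and an adjusted p of 0.000881 in edgeR. One heart stood apart, because the second principal component of all tested genes placed KO 1 at -34.7 and the other KO hearts at 17.5 and 13.2. The library codes of the KO hearts share one prefix and those of the controls another, so that any batch of libraries cannot be told apart from genotype. Of all 12686 genes, 765 passed the test of KO against control at an adjusted p under 0.05, 54.5% of them higher in KO. Scaled by total counts instead, all tested genes had a median that moved from -0.0032 to -0.14 on the log2 scale, and 23.6% of 1163 called genes were higher.

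Promoter windows from RefSeq (build GRCm38.p6, 250 bases before to 50 bases after the start of transcription) matched 20 of the 34 genes. The 2 type IV collagen genes are shown first because they lie head to head on chromosome 8. Their annotated start sites, at 11312826 on the minus strand for Col4a1 and at 11312805 on the plus strand for Col4a2, are 21 bases apart. Their windows (chr8:11312777-11313076 and chr8:11312555-11312854) have 78 bases in common, in capitals, read on opposite strands.
Col4a1: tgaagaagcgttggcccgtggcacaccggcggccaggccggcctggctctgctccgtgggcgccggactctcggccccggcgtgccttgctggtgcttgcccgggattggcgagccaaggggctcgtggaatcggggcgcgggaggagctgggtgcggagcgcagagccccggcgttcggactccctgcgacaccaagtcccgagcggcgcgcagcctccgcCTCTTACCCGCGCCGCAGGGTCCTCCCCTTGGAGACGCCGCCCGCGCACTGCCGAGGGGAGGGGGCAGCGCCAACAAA
Col4a2: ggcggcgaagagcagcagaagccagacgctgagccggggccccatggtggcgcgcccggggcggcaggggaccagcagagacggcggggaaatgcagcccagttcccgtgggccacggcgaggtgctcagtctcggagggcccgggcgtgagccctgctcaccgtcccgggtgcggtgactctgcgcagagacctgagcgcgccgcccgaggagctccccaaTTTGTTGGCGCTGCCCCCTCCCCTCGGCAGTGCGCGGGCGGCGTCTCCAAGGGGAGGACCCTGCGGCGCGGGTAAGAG

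The windows of Col1a2 (chr6:4505368-4505667, plus strand) and Spp1 (chr5:104434861-104435160, plus strand) are shown as an example of a collagen gene that was lowest of the 6 hearts in KO 1 and as the one gene of the 32 whose KO values all lay above the controls. The motif CCAAT, searched on both strands and in capitals, is present in both.
Col1a2: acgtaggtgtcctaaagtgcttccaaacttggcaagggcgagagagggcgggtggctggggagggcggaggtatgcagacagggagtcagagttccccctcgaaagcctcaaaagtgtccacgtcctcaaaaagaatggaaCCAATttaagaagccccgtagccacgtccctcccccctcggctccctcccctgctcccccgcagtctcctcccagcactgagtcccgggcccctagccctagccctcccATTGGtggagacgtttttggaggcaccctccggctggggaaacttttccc
Spp1: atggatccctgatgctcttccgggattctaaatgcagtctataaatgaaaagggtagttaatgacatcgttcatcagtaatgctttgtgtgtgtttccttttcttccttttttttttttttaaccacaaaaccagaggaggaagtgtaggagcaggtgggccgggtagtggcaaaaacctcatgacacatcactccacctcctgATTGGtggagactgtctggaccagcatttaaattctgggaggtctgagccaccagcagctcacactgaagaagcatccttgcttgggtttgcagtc
CCAAT occurred in 8 of the 22 windows of the matrix genes (36.4%) and in 37.4% of all 32851 windows of the RefSeq table, so its share in the matrix genes was near that of all promoters.

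Per length of exon, Sparc had the highest level of the 32 genes in control hearts, at 67.2 ± 12.2 CPM per kb (SD, n = 3); it encodes a collagen-binding glycoprotein. Decorin (Dcn), which binds collagen fibrils, followed at 49.4 ± 1.05 CPM per kb. The type IV collagen chains had 32.2 ± 1.39 (Col4a1) and 29.3 ± 1.42 CPM per kb (Col4a2), the proteoglycan genes Bgn and Lum 14.2 ± 0.842 and 12.9 ± 1.49, and Col3a1 9.99 ± 1.77. Bgn and Lum differed by less than their spread. At the low end were Thbs1 at 0.354, Ltbp2 at 0.123 and Spp1 at 0.0684 CPM per kb. The 6 highest and the 4 lowest genes held the same ranks by mean level in the KO hearts.

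**Figure D1:**
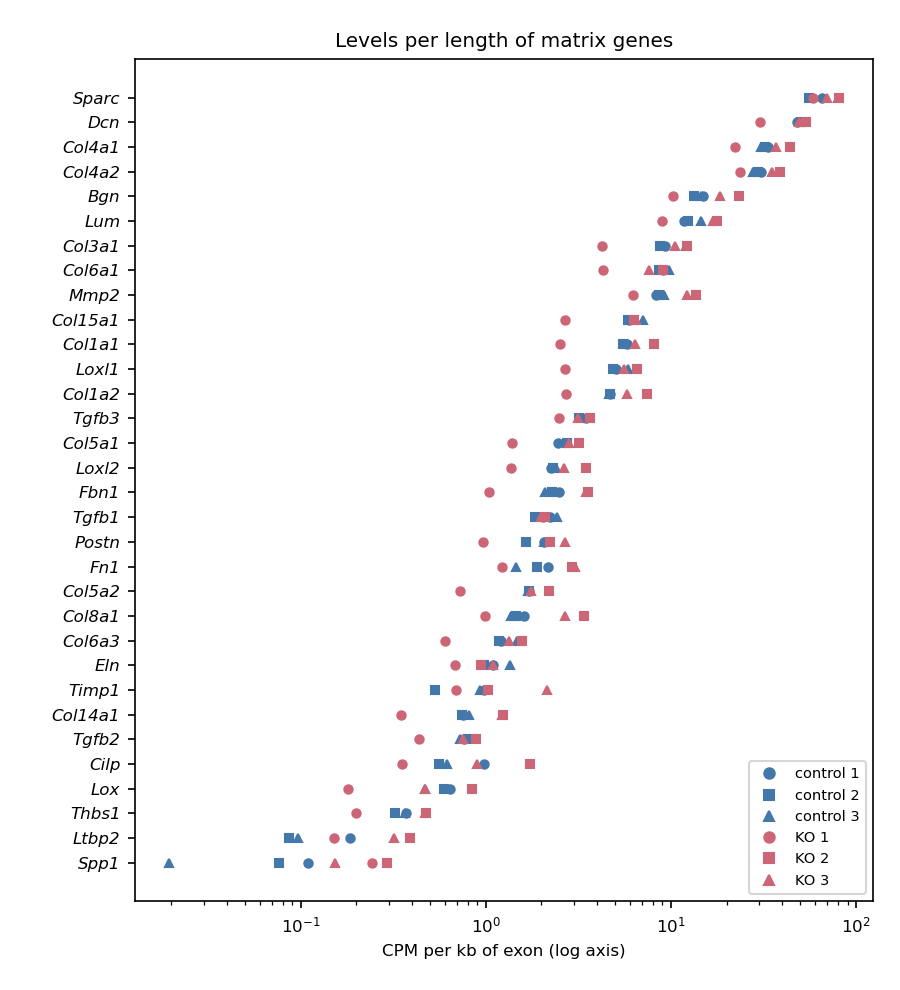
Level of each of the 32 genes in CPM per kb of exon (log axis); circles, squares and triangles are hearts 1, 2 and 3 of a group, controls in blue and KO hearts in red. Sparc and Dcn lie at the top and Spp1, at 0.0684 CPM per kb in controls, at the bottom.

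None of the 32 matrix genes passed the test of KO against control in edgeR, where 6.03% of all tested genes did, 3.29% higher and 2.74% lower. At an unadjusted p under 0.05 there were 2 (6.25%), Spp1 and Ltbp2, against 21.5% of all tested genes. DESeq2 called 1 of the 32 higher, Ltbp2 (adjusted p = 0.036), against 6.43% of all genes higher, and limma voom with quality weights called 5 higher, against 14.7%. Neither called any of the 32 lower, against 4.93% and 13.2% of all genes. In the authors' deposited table Spp1 and Ltbp2 have an adjusted p under 0.05 (0.0108 and 0.0353), as have 6.43% of its genes. The median log2 fold change of the 32 was 0.08 and that of all tested genes -0.0032. The fold changes spanned -0.39 (Col6a1) to 1.68 (Spp1), and 28 of 32 lay within 1.5-fold (87.5%, all genes 91.5%). These values do not show that the genes were alike in both groups: the 95% interval stayed within 1.5-fold for 4 of the 32 and within 2-fold for 22. KO and control values did not overlap in 1 of the 32, Spp1, against 27.2% of all tested genes.

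Much of the spread came from differences between the KO hearts. KO 1 had less RNA than each of the 3 controls for 27 of the 32 genes, whereas 36.1% of all tested genes were so placed. KO 2 exceeded each control for 28 of the 32 and KO 3 for 19, against 36.4% of all genes in either heart. Relative to the control mean, the median of the 32 was 58.7% in KO 1, 133% in KO 2 and 114% in KO 3. For Sparc, Spp1, Timp1, Tgfb1 and Ltbp2, KO 1 was not below all controls. KO 2 was below the control mean for 4 genes (Eln, Tgfb1, Col6a1 and Col15a1, at 82.5% to 99.96%). KO 3 was below it for 7 genes (Col6a1, Eln, Dcn, Lox, Tgfb1, Tgfb2 and Tgfb3). Col6a1, Eln and Tgfb1 were below it in each KO heart.

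**Figure D2:**
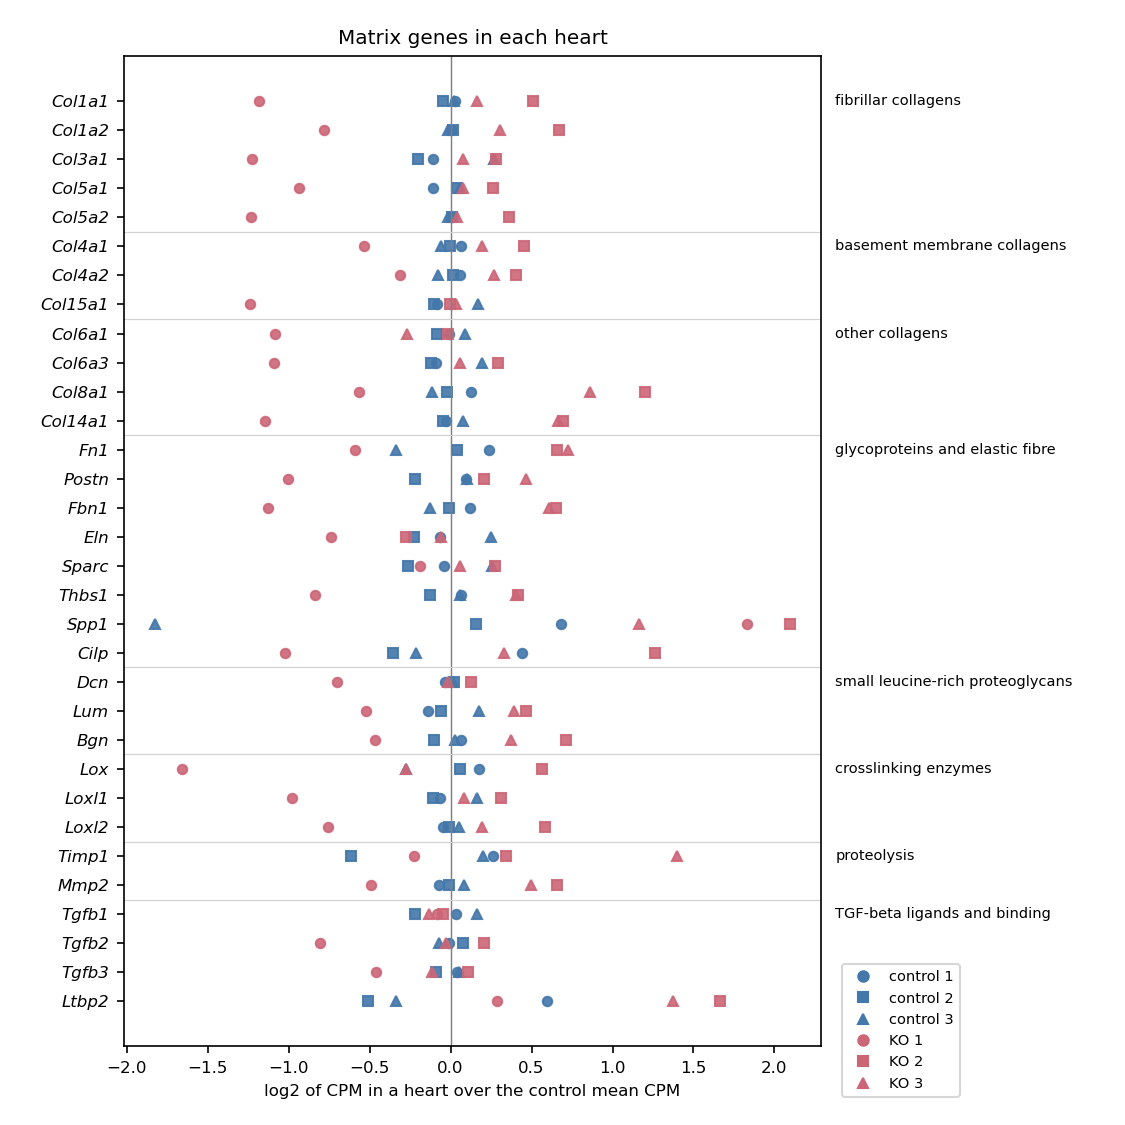
CPM of each gene in each heart as log2 of its ratio to the control mean, grouped by role; circles, squares and triangles are hearts 1, 2 and 3, controls in blue and KO hearts in red. KO 1 lies left of the 3 controls for 27 of 32 genes and KO 2 right of them for 28.

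Among the fibrillar collagens, which form the load-bearing fibres, 0 of 5 genes were called in edgeR, DESeq2 or voom. None had an unadjusted edgeR p under 0.05. Of all genes, 6.03%, 11.4% and 27.9% were called by these tools, and 21.5% had such a p. The counts of this subgroup and of those below stand against these shares, and in so few genes they show little. Col1a1, the alpha 1 chain of type I collagen, had 38.0, 36.0 and 37.8 CPM in controls 1 to 3 and 16.4, 53.0 and 41.8 CPM in KO hearts 1 to 3. The 3 controls lay close together, KO 1 was below them and the other KO hearts above. Its log2 fold change was -0.01 (SE 0.36, 95% interval -0.85 to 0.83, edgeR adjusted p = 0.994). Col1a2, the alpha 2 chain, had 58.2, 58.6 and 57.3 CPM in controls and 33.7, 92.1 and 71.7 CPM in KO hearts (log2 fold change 0.18 with SE 0.31; adjusted p = 0.796, edgeR). Both chains showed the same order of hearts in the KO group, and the groups overlapped. Per length, the ratio of Col1a1 to Col1a2 was 1.16 to 1.25 in controls and 0.922, 1.09 and 1.10 in KO hearts 1 to 3. Col3a1, which encodes type III collagen of thin fibres, had 90.9, 85.4 and 118 CPM in controls and 41.8, 119 and 103 CPM in KO hearts. The type V genes Col5a1 and Col5a2, whose product starts collagen fibrils, stood at 52.4% and 42.5% of the control mean in KO 1. They stood at 120% and 129% in KO 2 and at 105% and 103% in KO 3.

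The genes whose levels over the 6 hearts were most like those of Col1a1 were Col5a2 (Pearson r = 0.992 of log2 CPM), Col5a1 and Loxl1 (0.981 each), Loxl2 (0.977) and Dcn (0.973). Over the 5 hearts without KO 1 these values were 0.959, 0.828, 0.834, 0.983 and 0.806. They are descriptions over few hearts, and the genes compared were measured in the same libraries. By rank over the 6 hearts the correlation with Col1a1 was 0.486 for Dcn, and 0.829 each for Col5a2, Col5a1, Loxl1 and Loxl2. Of the other 31 matrix genes 17 had r above 0.9, as did 3.87% of all tested genes. Without KO 1 the number was 8, of which 4 were among the 17, as against 3.81% of all tested genes, and Col15a1 went from 0.926 to 0.0922, Postn from 0.920 to 0.495 and Tgfb3 from 0.927 to 0.518.

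The basement membrane collagens were also without a call in edgeR, DESeq2 or voom (0 of 3, none with an unadjusted edgeR p under 0.05). Col4a1 had 251, 239.7 and 230.2 CPM in controls and 166, 329 and 275 CPM in KO hearts, and Col4a2 202, 196 and 184 CPM in controls and 156, 257 and 234 CPM in KO hearts. In both genes KO 1 lay below all controls and KO 2 and KO 3 above. The log2 fold changes were 0.09 (SE 0.22) for Col4a1 and 0.15 (SE 0.18) for Col4a2 (edgeR adjusted p = 0.863 and 0.687). The per-length ratio of Col4a1 to Col4a2, the pair with the common promoter stretch shown above, was 1.08 to 1.11 in controls and 0.941, 1.13 and 1.04 in KO hearts 1 to 3. Col15a1, a collagen at the outer face of muscle basement membrane, had 37.7, 37.2 and 45.0 CPM in controls and 16.9, 39.9 and 41.0 CPM in KO hearts, with KO 2 and KO 3 inside the control range (log2 fold change -0.29 with SE 0.30; adjusted p = 0.647, edgeR).

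Of the other collagens, 0 of 4 were called by edgeR (none with an unadjusted p under 0.05) or DESeq2, and voom called Col8a1 higher. Col8a1, a short-chain network collagen known from vessels and remodelling hearts, had 12.6, 11.4 and 10.7 CPM in controls and 7.79, 26.6 and 20.9 CPM in KO hearts. KO 2 and KO 3 were far above the controls and KO 1 below them (log2 fold change 0.67 with SE 0.38; adjusted p = 0.368, edgeR). Col14a1, which coats fibrils, had 5.29, 5.21 and 5.67 CPM in controls and 2.44, 8.72 and 8.55 CPM in KO hearts (log2 fold change 0.28 with SE 0.41; adjusted p = 0.759, edgeR). The type VI genes Col6a1 and Col6a3, whose product forms beaded filaments, were at 47.3% and 47.0% of the control mean in KO 1. Col6a1 was below the control mean in the other KO hearts too (33.2 to 39.6 CPM against a control mean of 40.0). Col6a3 was at 122% and 104% of it in KO 2 and KO 3.

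In the group of glycoproteins and elastic fibre genes, 0 of 8 were called by edgeR, DESeq2 or voom, and 1 had an unadjusted edgeR p under 0.05. That gene was Spp1, which encodes osteopontin, a cytokine-like matrix protein of macrophages and stressed tissue. Its level was very low, with 14, 8 and 2 counts in controls 1 to 3 and 28, 31 and 17 in KO hearts, or 0.113 ± 0.0752 CPM against 0.378 ± 0.116 CPM (SD, n = 3 each). Each KO heart was above each control (log2 fold change 1.68 with SE 0.50; adjusted p = 0.105, edgeR). Exons of another annotated gene cover 18.8% of its exon length, and whether the counting used strand is unknown.

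Fn1, fibronectin, had 25.4, 22.2 and 17.04 CPM in controls and 14.3, 33.97 and 35.6 CPM in KO hearts (log2 fold change 0.37 with SE 0.33; adjusted p = 0.574, edgeR). Fbn1, fibrillin of microfibrils, had 30.1, 27.5 and 25.4 CPM in controls and 12.7, 43.5 and 42.1 CPM in KO hearts (log2 fold change 0.24 with SE 0.40; adjusted p = 0.789, edgeR). For both, KO 1 lay below the controls and the other KO hearts above. Exons of other genes cover 20.1% of the exon length of Fbn1. Relative to its level, Sparc varied less over the KO hearts than Fn1 and Fbn1. It had 247, 212 and 304 CPM in controls and 223, 308 and 265 CPM in KO hearts. Its controls spread about as widely as its KO hearts (SD 46.2 and 42.7 CPM, n = 3 each), and KO 1 lay within the control range. The log2 fold change was 0.06 with SE 0.16 (edgeR adjusted p = 0.884). Postn, periostin of activated fibroblasts, had 17.9, 14.4 and 18.0 CPM in controls and 8.38, 19.3 and 23.2 CPM in KO hearts. Thbs1, Cilp and Eln, which encode thrombospondin, an intermediate layer protein and elastin, were at 49.3% to 60.04% of the control mean in KO 1. In KO 2 and KO 3 they differed, with Thbs1 at 134% and 132%, Cilp at 240% and 125%, and Eln at 82.5% and 95.8%.

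The small leucine-rich proteoglycans bind collagen fibrils and growth factors. Of 3 with a row, edgeR (none with an unadjusted p under 0.05) and DESeq2 called 0 and voom called Lum and Bgn higher. Bgn, biglycan, had 90.9, 81.1 and 88.7 CPM in controls and 63.0, 142 and 112 CPM in KO hearts (log2 fold change 0.29 with SE 0.26; adjusted p = 0.593, edgeR). Lum, lumican, had 28.7, 30.4 and 35.7 CPM in controls and 22.0, 43.7 and 41.5 CPM in KO hearts, an order of hearts like that of Bgn. Dcn had 282, 293 and 291 CPM in controls and 178, 315 and 286 CPM in KO hearts, so that KO 2 and KO 3 were close to the controls (log2 fold change -0.15 with SE 0.20; adjusted p = 0.717, edgeR).

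Lysyl oxidases oxidise lysines of collagen and elastin. None of the 3 genes was called in edgeR, DESeq2 or voom, and none had an unadjusted edgeR p under 0.05. Lox had 3.07, 2.83 and 2.25 CPM in controls and 0.859, 4.02 and 2.24 CPM in KO hearts, and at 31.6% of the control mean KO 1 was lower for Lox than for any other of the 32 genes (log2 fold change -0.20 with SE 0.47; adjusted p = 0.858, edgeR). Loxl2 had 12.1, 12.4 and 12.99 CPM in controls and 7.42, 18.8 and 14.3 CPM in KO hearts, and Loxl1 16.6, 16.1 and 19.4 CPM in controls and 8.82, 21.6 and 18.4 CPM in KO hearts. KO 1 was the lowest heart for all 3 enzymes.

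Of the proteolysis pair, edgeR (none with an unadjusted p under 0.05) and DESeq2 called neither gene and voom called Mmp2 higher. Mmp2, a gelatinase made by fibroblasts, had 27.9, 29.1 and 31.1 CPM in controls and 20.9, 46.2 and 41.4 CPM in KO hearts (log2 fold change 0.30 with SE 0.26; adjusted p = 0.571, edgeR). Timp1, a metalloproteinase inhibitor, had 0.864, 0.472 and 0.829 CPM in controls and 0.616, 0.915 and 1.90 CPM in KO hearts, with KO 3 alone well above the controls (log2 fold change 0.66 with SE 0.44; adjusted p = 0.448, edgeR).

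Among the TGF-beta genes 0 of 4 passed in edgeR and 1 had an unadjusted p under 0.05, while DESeq2 and voom each called Ltbp2 higher. Ltbp2, a microfibril protein related to the latent TGF-beta binding proteins, had 1.52, 0.708 and 0.797 CPM in controls and 1.23, 3.20 and 2.61 CPM in KO hearts. KO 1 lay inside the control range and the other KO hearts above it. The log2 fold change was 1.20 with SE 0.42 (edgeR adjusted p = 0.151). Ltbp2 had 45 to 206 counts a heart, and exons of another annotated gene cover 9.34% of its exon length. The ligand Tgfb1 varied little, with 11.2, 9.36 and 12.2 CPM in controls and 10.3, 10.6 and 9.96 CPM in KO hearts, all KO values inside the control range. Its 95% interval of -0.35 to 0.18 lay within 1.5-fold. Tgfb3 (11.8, 10.8 and 11.9 against 8.39, 12.4 and 10.7 CPM) and Tgfb2 (4.40, 4.67 and 4.22 against 2.54, 5.10 and 4.35 CPM) were lowest in KO 1.

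As sums, markers of fibroblasts moved across the hearts with the matrix genes. The 17 fibroblast markers of the table summed to 1247 to 1269 CPM in controls and to 796, 1631 and 1467 CPM in KO hearts 1 to 3, that is 63.2%, 130% and 117% of the control mean. The 32 matrix genes, none of which is on that list, summed to 1541 to 1680 CPM in controls and to 1077, 2080 and 1812 CPM in KO hearts, or 66.8%, 129% and 112%. The ratio of the sums was 1.22 to 1.35 in controls and 1.35, 1.28 and 1.24 in KO hearts 1 to 3, within 0.01 of the control range in each. Sparc, Dcn and the type IV collagens weigh most in the matrix sum. Taken singly, 14 of the 17 fibroblast markers were lowest of the 6 hearts in KO 1, as were 24.8% of all genes. The log2 fold change was below 0 for 11 of the 17 and above 0 for 6 (median -0.048). The fibroblast receptor gene Pdgfra had 21.4, 23.9 and 20.9 CPM in controls and 10.5, 29.9 and 23.7 CPM in KO hearts, and no fibroblast marker was called in edgeR (2 with an unadjusted p under 0.05) or DESeq2, while voom called 1 higher and 1 lower. None of the 17 was at 0 in all hearts. In RNA of whole hearts, fewer cells of a type and less RNA per cell cannot be told apart. The part of cell make-up in the matrix values was not tested.

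**Figure D3:**
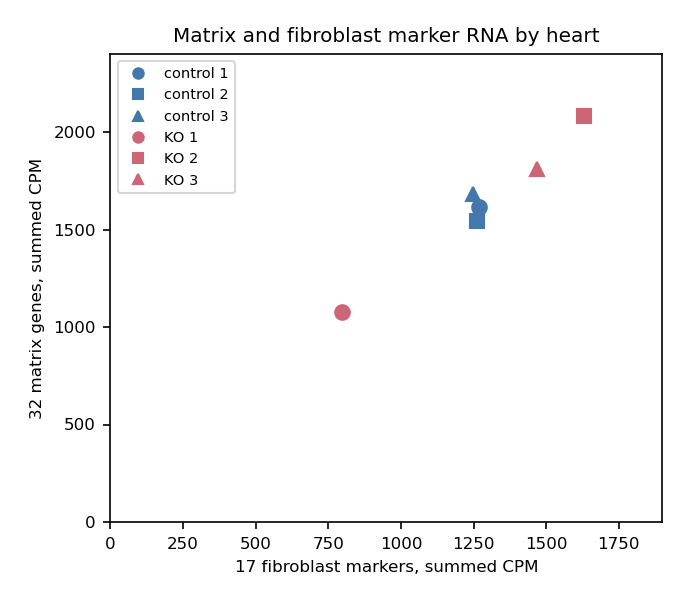
Summed CPM of the 32 matrix genes (vertical) against summed CPM of 17 fibroblast markers (horizontal) in each heart, controls in blue and KO hearts in red, with circles, squares and triangles for hearts 1, 2 and 3. The controls cluster, KO 1 lies low on both axes (796 and 1077 CPM) and KO 2 high on both (1631 and 2080 CPM).

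Markers of other cell types did not all follow the fibroblast markers. The 13 cardiomyocyte markers summed to 66143 to 68040 CPM in controls and 62579 to 69411 CPM in KO hearts, highest in KO 1. The 16 smooth muscle and pericyte markers summed to 2418 to 2565 CPM and 2445 to 2535 CPM. This sum hides lower values of single genes, as 12 of the 16 had a log2 fold change below 0 and 4 above (median -0.19). Of the 16, 6 had an unadjusted edgeR p under 0.05 (37.5%, against 21.5% of all genes). In edgeR 1 was called, Acta2, which was lower (6.25%, against 6.03% of all genes) and is described below. The 12 endothelial markers stood at 74.9%, 118% and 105% of the control mean in KO hearts 1 to 3 and the 14 macrophage markers at 77.7%, 97.4% and 97.8%. The 7 neutrophil markers of the table were scarce (1.75 to 2.62 CPM summed in controls, 2.92 to 3.82 CPM in KO hearts). The 4 valve and tendon markers with a row, of 15 listed, stood at 102%, 160% and 146% of the control mean in KO hearts 1 to 3. Of them 2 were called higher, Scx and Thbs4, but they did not all rise. In 1 of the 4 the log2 fold change was below 0, at -1.22, and DESeq2 and voom each called 1 lower. The 3 adipocyte markers, nearly all of whose sum was Lpl, which heart muscle also expresses, were above all controls in each KO heart (135%, 112% and 130%). Erythroid and platelet markers varied widely, at 65.1%, 44.3% and 145%. Endocardial markers stood at 92.7%, 120% and 114%, epicardial markers at 73.1%, 105% and 115%, Schwann cell markers at 75.3%, 92.5% and 93.5%, and lymphocyte markers at 86.5%, 80.4% and 122%. The part of these shifts in the matrix values was not tested. The myofibroblast list went no single way: its 18 genes, Ltbp2 and Thbs4 among them, summed to 78.5%, 221% and 87.6% of the control mean, with Acta1, which muscle cells also express, at 715 CPM in KO 2 alone. Acta2, the smooth muscle actin of vessel walls and myofibroblasts, chosen after its values were seen, fell from 117, 87.1 and 123 CPM in controls to 56.0, 50.6 and 54.8 CPM in KO hearts (log2 fold change -1.02, edgeR adjusted p = 0.00547).

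Without KO 1, 13 of the 32 matrix genes were higher in the remaining 2 KO hearts than in the 3 controls and none was lower, in a fit that called 12.3% of all genes higher and 10.5% lower. This is 40.6% of the matrix genes, and the median log2 fold change of the 32 was 0.34. KO 1 was the lowest of the 6 hearts for 27 of the 32, against 24.8% of all genes. Leaving it out therefore raised the KO means of these genes and narrowed their spread by the choice of heart. Many of the 32 also varied together over the hearts, so the 13 calls are not separate results. The 13 were Col1a1, Col1a2, Col4a1, Col4a2, Col8a1, Col14a1, Fn1, Fbn1, Lum, Bgn, Loxl2, Mmp2 and Ltbp2. The differences were mostly small, from 1.26-fold for Col4a1 (edgeR adjusted p = 0.0374) and 1.27-fold for Col1a1 (edgeR adjusted p = 0.0385) to 2.06-fold for Col8a1 (edgeR adjusted p = 0.000568) and 2.83-fold for Ltbp2 (edgeR adjusted p = 0.00961). Col3a1, Col5a1, Col5a2, Sparc, Dcn, Postn and the 3 TGF-beta ligands were not called in this fit. The summed fibroblast markers of KO 2 and KO 3 were above all controls as well. Gene by gene, the same fit called 2 of the 17 higher (11.8%, near the 12.3% of all genes) and 1 lower. The part of cell make-up in the 13 calls was not tested. In the other 5 fits that left out a library, none of the 32 was called.

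**Figure D4:**
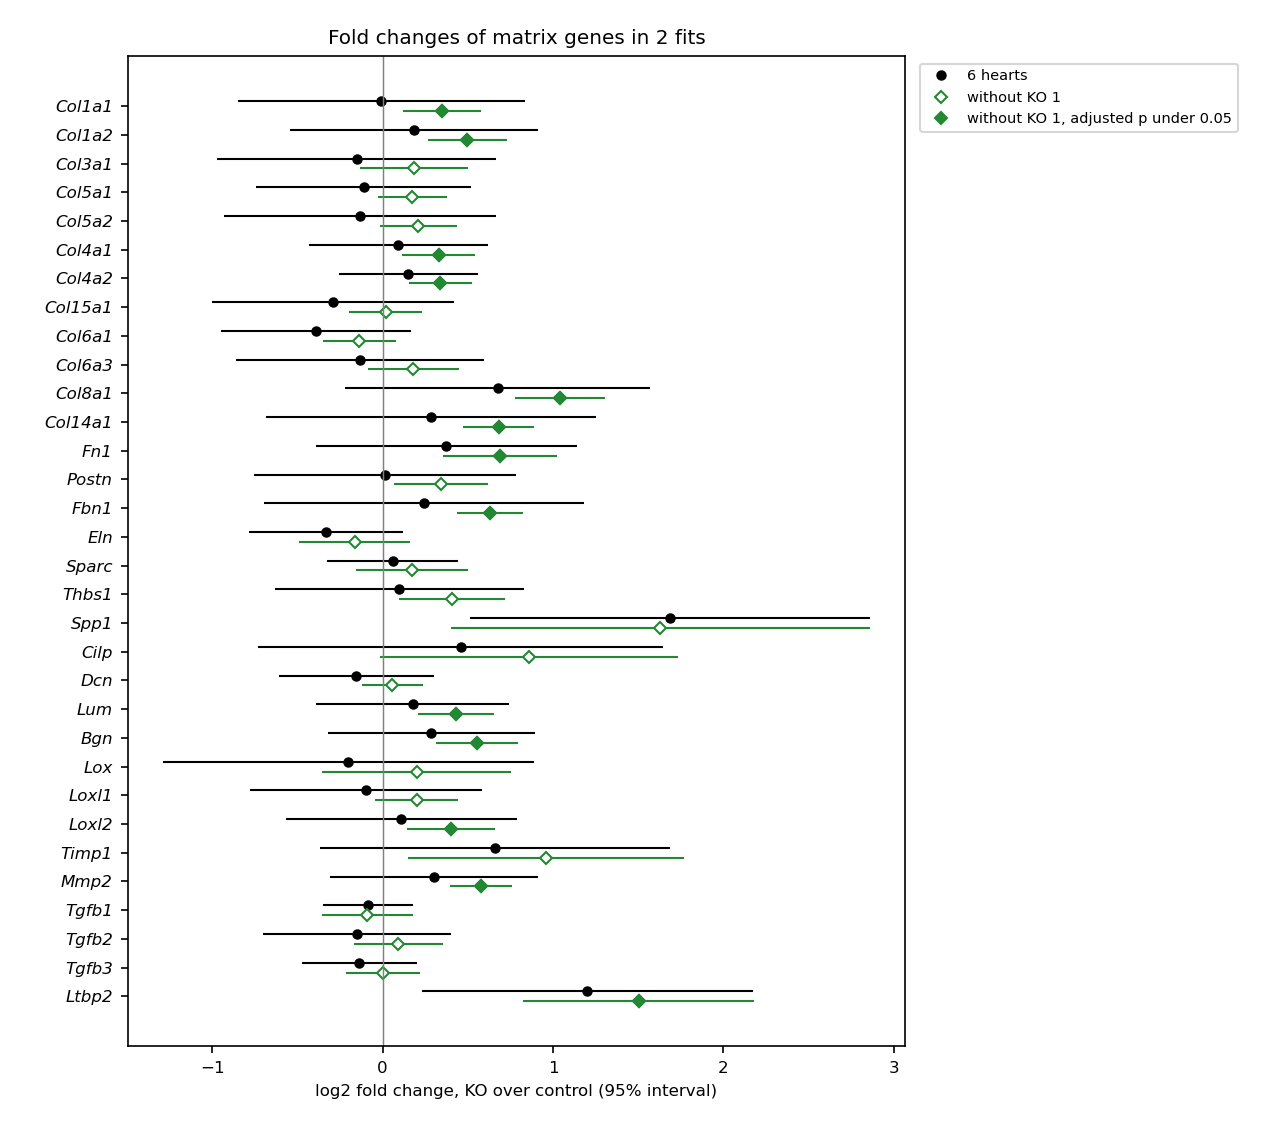
Log2 fold change of KO over control with its 95% interval for each gene, from all 6 hearts (black circles) and without KO 1 (green diamonds, filled where the edgeR adjusted p was under 0.05). The intervals from 6 hearts are wide, and 13 diamonds are filled, all to the right of 0.

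Beyond the 34 genes, 215 other genes of the matrix and its signalling were tested, in 9 lists. Of them 15 were called (6.98%, near the 6.03% of all genes), 4 higher and 11 lower. The balance turned with the tool and the hearts. DESeq2 called 16 higher (7.41%) and 14 lower, against 6.43% and 4.93% of all genes. Voom called 38 higher (17.7%) and 30 lower, against 14.7% and 13.2% of all genes. Without KO 1 edgeR called 45 higher (20.9%) and 23 lower, against 12.3% and 10.5% of all genes. The smallest adjusted p values came with a pair of genes that help collagen fold, which had lower levels in each of the 3 KO hearts. Serpinh1, the collagen chaperone HSP47 of the endoplasmic reticulum, had 123, 109.7 and 134 CPM in controls and 62.4, 71.5 and 71.1 CPM in KO hearts, 1.79-fold lower (SE 0.10 on the log2 scale, edgeR adjusted p = 0.00384). Fkbp10, a prolyl isomerase that acts on collagen and elastin precursors, fell 2.31-fold, from 22.5, 25.1 and 23.8 CPM to 12.1, 9.76 and 9.07 CPM (edgeR adjusted p = 0.00152). Both held their calls in every alternative fit and in each fit that left out a library. In the same list of 18 genes, 1 rose and 3 fell (22.2% called, against 6.03% of all genes). P4ha2, a subunit of the prolyl hydroxylase of collagen, rose 1.29-fold (edgeR adjusted p = 0.0356), a call kept only without KO 1 among the fits that left out a library. Col5a3 fell 1.65-fold (10.3 ± 0.413 to 6.22 ± 1.37 CPM, edgeR adjusted p = 0.0462), but was not called without KO 3 or any 1 of the controls.

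**Figure D5:**
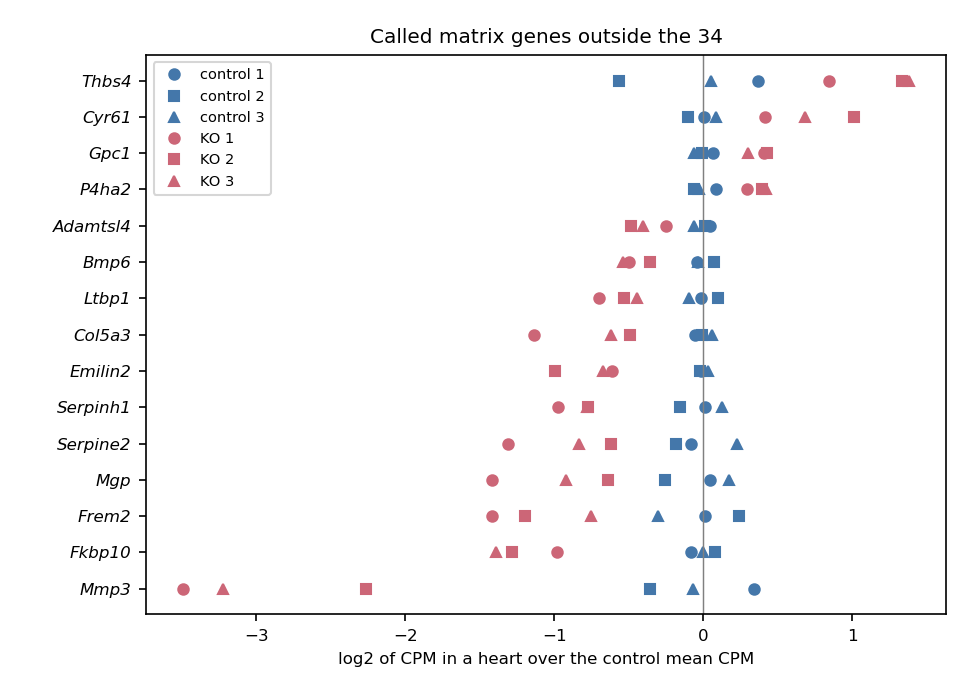
CPM in each heart as log2 of its ratio to the control mean for the 15 called matrix genes outside the 34; circles, squares and triangles are hearts 1, 2 and 3, controls in blue and KO hearts in red. The KO hearts lie on one side of the controls for each gene, KO 1 included, and Mmp3 lies farthest to the left.

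Of 34 other glycoproteins, 2 rose and 3 fell (14.7% called, against 6.03% of all genes). Emilin2, an elastic fibre glycoprotein, fell 1.68-fold, from 37.2, 37.1 and 38.5 CPM to 24.6, 18.9 and 23.6 CPM (edgeR adjusted p = 0.00853, 0.0480 at most without 1 library). Frem2, of the Fraser complex of basement membranes, fell 2.13-fold (edgeR adjusted p = 0.0229), but was not called without control 1, control 2 or KO 2. Mgp, the matrix Gla protein that inhibits calcification, fell 1.94-fold (from 77.1, 62.5 and 84.0 CPM to 27.8, 47.8 and 39.4 CPM, edgeR adjusted p = 0.0359), which it lost without KO 3 or any 1 control. Cyr61, a matricellular protein of the CCN family, rose 1.65-fold (edgeR adjusted p = 0.0344), a call that the fits without 1 library kept only when KO 1 was the one left out. The thrombospondin gene Thbs4, chosen after its values were seen, rose from 2.00 ± 0.616 to 4.62 ± 0.893 CPM (edgeR adjusted p = 0.0362), but was not called without control 2, control 3, KO 2 or KO 3 (0.0860 to 0.129).

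Among 43 proteases and inhibitors none rose and 3 fell (6.98% called, against 6.03% of all genes). Mmp3, the protease stromelysin, was low and fell 7.42-fold, from 1.22, 0.755 and 0.925 CPM to 0.0859, 0.202 and 0.104 CPM (log2 fold change -2.89 with SE 0.36; adjusted p = 0.00432, edgeR), and held its call in every alternative that tested it. Serpine2, an inhibitor of serine proteases, fell 1.86-fold (edgeR adjusted p = 0.0367; lost without KO 3 or any 1 control). Adamtsl4, a microfibril-binding protein, fell 1.30-fold (edgeR adjusted p = 0.0469; of the fits without 1 library, called without KO 1 only). Of 40 genes of TGF-beta signalling, 2 fell (5% called, against 6.03% of all genes). Ltbp1, which holds latent TGF-beta in the matrix, fell 1.47-fold (39.1 ± 2.72 to 26.6 ± 2.35 CPM, edgeR adjusted p = 0.0169). It lost its call without control 1, control 2 or KO 2. The ligand Bmp6 fell 1.38-fold (edgeR adjusted p = 0.0247), a call lost without KO 3 or any 1 control. Of 20 other proteoglycan and hyaluronan genes only the glypican Gpc1 was called (5%, against 6.03% of all genes). It was 1.30-fold higher (275 ± 12.4 to 358 ± 16.6 CPM, edgeR adjusted p = 0.0382). Of the fits without 1 library, only that without KO 1 kept its call.

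The remaining 4 lists had no called gene in edgeR, and their counts at an unadjusted p under 0.05 stand against 21.5% of all tested genes. Their calls in DESeq2 and voom stand against 11.4% and 27.9% of all genes. Of 22 other basement membrane genes, 1 had an unadjusted p under 0.05, Smoc2 (log2 fold change -0.58, edgeR adjusted p = 0.176), DESeq2 called 0 and voom 1. Of 7 other non-fibrillar collagens, 2 had one, with Col20a1 lowest by p (log2 fold change -0.59), and DESeq2 called 0 and voom 1. Of 9 other crosslinking genes, 2 had one, with Colgalt2 lowest by p (-0.47), and DESeq2 called 0 and voom 2. Of 22 matrix receptors, 5 had one (22.7%), with the collagen receptor Ddr1 lowest by p (-0.24, edgeR adjusted p = 0.104), and DESeq2 called 1 and voom 10. Within 5 Mb of the called genes Mgp, Emilin2, Ltbp1 and Serpinh1, 15.9% to 19.4% of tested neighbours were called too, above the 6.03% of all genes. The counts were 6 of 31, 6 of 33, 7 of 42 and 13 of 82. The windows of Emilin2 and Ltbp1 overlap on chromosome 17, so they are not separate neighbourhoods. The share was 1.27% within 5 Mb of Fkbp10, and 0% to 10% around the other 10 called genes. The part of these neighbourhoods in the calls was not tested.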

How the data were processed

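RNA of 6 hearts was sequenced after poly(A) selection, per the labels' protocols. Per the submitters' processing notes, the tools were RSEM 1.17, cutadapt, edgeR and Picard, with GRCm38 as the build, in no stated role or order; annotation, filters and strand use are, for the sources used here, not given. The deposited raw values are whole numbers, taken as estimated counts rounded by the authors. The authors also deposited a normalized signal (the count times 1 factor a library), a log2 fold change, a signed fold change score and a p-value, raw and adjusted; of these only the log2 fold change and adjusted p-value are used.

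Counts were tested with edgeR 4.0.16 in R 4.3.3: TMM factors, the default filter by group (138 genes removed, none of the 32), a robust quasi-likelihood fit of genotype on 6 libraries, and Benjamini-Hochberg adjustment over 12686 genes. SE is the absolute log2 fold change over the square root of F, and 95% intervals use its t quantile. CPM uses TMM-scaled library sizes; log2 CPM has a prior count of 2. Exon length is the union of GENCODE M21 exons. Exons of 15 of the 32 genes overlap another gene's, over 5% of their length in 5 (Fbn1, Spp1, Tgfb3, Ltbp2 and Loxl2). The fit was tested on simulated data. DESeq2 1.42.0 and limma 3.58.1 (voom with quality weights) were alternatives, beside RLE and total-count scaling, 2 other filters, a replicate block, an adjusted p of 0.01 and leaving out each library.

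The members and gene lists were chosen with earlier results of these data known. Values in every heart are given for members with the smallest p of their subgroup, the highest level per length, or a call without KO 1. From the other lists the called genes with the smallest p, at most 4 a list, or else the gene with the smallest p, are named with their fold changes, some also by heart or by mean and SD. Members most like Col1a1 over the hearts are named, at most 5. Col3a1, Postn, Loxl1, Tgfb1, Tgfb2 and Tgfb3 are also given in every heart, chosen after their values were seen. Col5a1, Col5a2, Col6a3, Thbs1, Cilp and Eln are given in KO hearts as a percent of the control mean. The labels name separate hearts. The range of totals, 59810975 to 74941323, limits precision by counting error only, and 3 counts is the limit that a count of 0 allows.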

Additional observations from a re-analysis of the deposited data

How the results depend on the processing

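Leaving out 1 library gave 0 to 13 matrix genes called higher and 0 lower, 288 to 2896 genes called of all tested (765 with 6 hearts), and 0 to 45 other matrix genes higher (4 with 6 hearts) and 4 to 23 lower (11). The upper ends are without KO 1, and in the other 5 fits no collagen gene of the 32 was called. DESeq2 called 1 matrix gene higher, 1455 genes in all and 16 other matrix genes higher and 14 lower. Voom with quality weights called 5, 3538, 38 higher and 30 lower. It gave KO 1 a weight of 0.186 and control 1 one of 3.52, against 0.992 and 0.926 for controls 2 and 3. Its calls therefore rest little on KO 1 and, among the controls, mostly on control 1. Total counts called 1163 genes, with 1 other matrix gene higher and 20 lower. At an adjusted p of 0.01, 291 genes were called, 0 other matrix genes higher and 4 lower. With the heart number as a replicate block, 505 genes were called and 2 other matrix genes higher, and P4ha2, Gpc1, Adamtsl4, Bmp6 and Thbs4 lost their calls. P4ha2, Cyr61 and Gpc1 lost theirs with total counts and Adamtsl4 with RLE factors. The deviations of same-numbered hearts had r of -0.0639, 0.151 and -0.256, and those of other pairs ran from -0.238 to 0.308. With 3 hearts a group, these values cannot decide whether same-numbered hearts were paired.

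Genes near no change took the other sign in single fits. Total counts gave -0.075 for Sparc, -0.043 for Col4a1 and -0.027 for Loxl2, and voom 0.015 for Dcn, 0.20 for Col1a1, 0.082 for Col5a2, and 0.14 for Col5a1 and Loxl1. Over the fits without 1 library, log2 fold changes ran from -0.14 to 0.50 for Col1a2, -0.36 to 0.35 for Col1a1, -0.46 to 0.21 for Col5a2, -0.34 to 0.17 for Col5a1, -0.13 to 0.33 for Col4a1, -0.49 to 0.018 for Col15a1, -0.015 to 0.63 for Fbn1, -0.061 to 0.21 for Sparc, -0.32 to 0.057 for Dcn, -0.81 to 0.20 for Lox, -0.35 to 0.20 for Loxl1 and -0.20 to 0.40 for Loxl2. The cause was not tested. The median of the 32 moved between -0.13 and 0.34. In the fits without 1 library Spp1 ranged from 1.28 to 2.23 (edgeR adjusted p 0.0595 to 0.242) and rests on at most 31 counts a heart. Srsf4, Fkbp10, Serpinh1, Emilin2 and Mmp3 kept direction and call in all alternatives that tested them. Intervals of the fibrillar collagens from 6 hearts reach past 1.5-fold, so smaller changes are not detectable.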
